A study of Mus musculus with 4 samples.

Results

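The inner root sheath keratins Krt25, Krt26, Krt27, Krt28, Krt71, Krt72, Krt73 and Krt74 and the companion layer keratin Krt75 were examined in dorsal skin of bitransgenic mice that overexpressed deltaNp63alpha and of wild type mice, all at postnatal day 16. The p63 isoform deltaNp63alpha lacks the amino-terminal transactivation domain and is the main form in basal keratinocytes. Members were chosen by gene symbol in the annotation of the Affymetrix mouse array. Of the 9 keratins listed, 8 had a probe set, 1 each, out of 18194 genes with a probe set of their own. Krt74, which RefSeq lists as a transcribed pseudogene in the mouse, had none and was not analysed here. Each group held 2 arrays of 1 animal each (n = 2 per group throughout). The promoter that drives the transgene, any inducing agent, strain, sex and litter were not stated in the labels.

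The inner root sheath is the sleeve of the growing hair follicle that moulds the hair shaft and breaks down before the shaft leaves the skin. It consists of the Henle layer, the Huxley layer and a cuticle, and the companion layer ties it to the outer root sheath. Keratin filaments form from pairs of a type I and a type II keratin, and the sheath has its own set of each, made by cells that leave the hair matrix during follicle growth. In human follicles KRT25, KRT27, KRT28 and KRT71 are found in all layers of the sheath, whereas KRT26, KRT72 and KRT73 are keratins of its cuticle.

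Signals of all 8 keratins were lower in both bitransgenic animals than in either wild type animal. On the log2(signal + 16) scale, in which 16 is added to steady low signals, the 7 inner root sheath keratins were 24.2-fold to 98.9-fold lower in bitransgenic skin, and Krt75 was 4.36-fold lower. Krt26 and Krt72 passed the threshold of 0.05 on limma's adjusted p over 13070 genes, so 2 of 8 fell, 0 rose and 6 did not pass. Among all genes tested, 1.58% passed with a lower value and 0.75% with a higher value. The bitransgenic animals differed strongly from each other: the sheath keratins had 0.245% to 0.767% of the wild type mean signal in replicate 1 and 2.74% to 19.1% in replicate 2.

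The windows of 250 bases before the transcription start are shown for 6 members, because the genes lie in shared clusters and were lower together. They are given 5′ to 3′ in the direction of the gene, from RefSeq on build GRCm38.p6. Capitals mark matches to any of 4 motifs, where a match on the opposite strand reads as the reverse complement. TATAAA is the core of the box that positions many transcription starts. AGATAA is bound by factors such as Gata3. CTTTGA is bound by Lef1 and its relatives. TAATTA is bound by many homeodomain factors. The first pair are type I genes, the next 3 are type II genes of the sheath, and the last is the companion layer gene.
Krt25 (chr11:99322952-99323201, minus strand): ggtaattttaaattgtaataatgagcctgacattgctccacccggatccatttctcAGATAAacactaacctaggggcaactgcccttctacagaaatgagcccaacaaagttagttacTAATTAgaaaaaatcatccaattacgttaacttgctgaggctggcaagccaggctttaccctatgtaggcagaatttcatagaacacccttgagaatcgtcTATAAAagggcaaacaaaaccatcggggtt
Krt26 (chr11:99337966-99338215, minus strand): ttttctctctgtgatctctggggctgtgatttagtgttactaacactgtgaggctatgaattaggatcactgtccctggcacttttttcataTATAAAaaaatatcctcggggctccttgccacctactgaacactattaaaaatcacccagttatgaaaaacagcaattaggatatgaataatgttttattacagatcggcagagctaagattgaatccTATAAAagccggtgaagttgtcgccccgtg
Krt71 (chr15:101743098-101743347, minus strand): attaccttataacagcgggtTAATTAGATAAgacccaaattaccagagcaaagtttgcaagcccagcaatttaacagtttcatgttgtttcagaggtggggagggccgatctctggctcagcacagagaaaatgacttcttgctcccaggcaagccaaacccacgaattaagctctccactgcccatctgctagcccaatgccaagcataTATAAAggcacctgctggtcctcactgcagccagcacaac
Krt72 (chr15:101786521-101786770, minus strand): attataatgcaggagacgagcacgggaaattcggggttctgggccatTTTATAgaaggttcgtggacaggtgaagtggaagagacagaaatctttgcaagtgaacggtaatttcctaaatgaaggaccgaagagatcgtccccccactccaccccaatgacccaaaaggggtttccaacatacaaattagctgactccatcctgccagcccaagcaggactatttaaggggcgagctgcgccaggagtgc
Krt73 (chr15:101802361-101802610, minus strand): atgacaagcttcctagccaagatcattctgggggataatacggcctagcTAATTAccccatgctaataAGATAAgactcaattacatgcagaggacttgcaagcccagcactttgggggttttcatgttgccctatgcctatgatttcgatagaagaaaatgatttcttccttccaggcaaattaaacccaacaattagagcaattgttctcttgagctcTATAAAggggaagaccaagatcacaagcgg
Krt75 (chr15:101573905-101574154, minus strand): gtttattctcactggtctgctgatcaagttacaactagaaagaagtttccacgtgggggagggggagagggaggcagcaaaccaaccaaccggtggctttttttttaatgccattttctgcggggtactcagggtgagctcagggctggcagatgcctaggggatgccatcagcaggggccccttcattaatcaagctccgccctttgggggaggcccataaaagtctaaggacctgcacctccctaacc

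TATAAA occurred on either strand in the windows of 7 of the 8 members, against 12.4% of the 32851 windows of this length in the RefSeq table. In the gene's direction it began 30 bases before the start in Krt25, Krt26, Krt28 and Krt73, 40 bases before it in Krt71 and 15 bases before it in Krt27. The only match in Krt72 lay on the opposite strand, 203 bases before the start, and the Krt75 window held none of the 4 motifs. AGATAA was present in Krt25, Krt27, Krt71 and Krt73, or 4 of 8 members, against 9.99% of all windows. TAATTA, which was added to the search after the sequences had been seen, was also present in 4 of 8, namely Krt25, Krt28, Krt71 and Krt73, against 4.84% of all windows. In Krt71 the TAATTA and AGATAA matches overlap by 1 base. CTTTGA matched 1 of 8 members (Krt28), against 13.8% of all windows, and the decamer motif of the p53 family matched 0 of 8, against 7.13%. The longest run of identical bases between windows of different members had 14 bases, ttgcaagcccagca, in Krt71 and Krt73, where it began 196 and 154 bases before the start. Such matches are descriptions of the letters in these windows.

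Among the type I keratins, Krt25, the keratin mutated in Rex mice with a wavy coat, had signals of 263 and 6540 in bitransgenic replicates 1 and 2, against 24072 and 44526 in wild type replicates 1 and 2. Bitransgenic replicate 2 thus held 24.8 times the Krt25 signal of bitransgenic replicate 1, and both lay below the wild type arrays. The log2 difference was -4.60 ± 1.31 (SE; 95% interval -7.75 to -1.45) with an adjusted p of 0.143.

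Krt26, a type I keratin of the sheath cuticle, gave 37.3 and 418 in bitransgenic skin and 12744 and 17692 in wild type skin. It was low in both bitransgenic animals, at 0.245% and 2.74% of the wild type mean, and fell by 6.63 ± 0.88 on the log2 scale (95% interval -8.75 to -4.50, adjusted p = 0.0202). That was the 11th lowest value among the 13070 genes. Its signal in bitransgenic replicate 1 lay below 57.0, the signal at the filter on dim probe sets, so the fold depends on the added constant. The log2 difference was -6.89 when 1 was added in place of 16 and -6.09 when 64 was added. It was -5.12 without bitransgenic replicate 1 and -8.14 without bitransgenic replicate 2, and was called in both cases.

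Krt27, a type I keratin known from all layers of the human sheath, read 168 and 2547 in bitransgenic skin and 23830 and 31770 in wild type skin. Its wild type arrays were the closest of the 8 keratins, with a ratio of 1.33 between them. The log2 difference was -5.33 ± 1.09 with an adjusted p of 0.0682. Krt28, the last gene of the type I block, read 42.0 and 1123 in bitransgenic skin and 9428 and 20927 in wild type skin (log2 difference -5.77 ± 1.26, adjusted p = 0.0814). For Krt27 and Krt28 the arrays of the genotypes did not overlap, and neither passed the threshold. With the signal of Krt28 in bitransgenic replicate 1 also below 57.0, its fold of 54.7 depends on the added constant too.

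Among the type II keratins, Krt71, which is mutated in Caracul mice with a curly coat, had signals of 146 and 4783 in bitransgenic skin and 21918 and 36153 in wild type skin. The ratio between the bitransgenic animals was 32.8, the largest among the 8 keratins. The log2 difference of Krt71 was -5.00 ± 1.39 with an adjusted p of 0.137.

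Krt72, a type II keratin of the sheath cuticle, read 62.5 and 472 in bitransgenic skin and 11131 and 22937 in wild type skin. Like Krt26 it was low in both bitransgenic animals, at 0.367% and 2.77% of the wild type mean. It fell by 6.35 ± 0.82 on the log2 scale (95% interval -8.33 to -4.38, adjusted p = 0.0193), the 17th lowest value among the genes tested. The value was -5.03 without bitransgenic replicate 1 and -7.67 without bitransgenic replicate 2, also called in both cases. Krt73, also a cuticle keratin in human follicles, read 84.7 and 2123 in bitransgenic skin and 12395 and 28686 in wild type skin. Its residual signal in bitransgenic replicate 2 was 10.3% of the wild type mean, and its log2 difference of -5.35 ± 1.29 had an adjusted p of 0.103.

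Krt75, a type II keratin of the companion layer that is also known from the medulla of the shaft, kept the most signal. It read 1769 and 4012 in bitransgenic skin and 7610 and 17866 in wild type skin. These are 13.9% and 31.5% of the wild type mean, and the ratio between replicates was 2.27 for the bitransgenic and 2.35 for the wild type animals. The log2 difference of -2.12 ± 0.52 (95% interval -3.38 to -0.87) missed the threshold, with an adjusted p of 0.106. Its interval did not overlap those of Krt26 and Krt72. It overlapped those of the other 5 sheath keratins, and the difference between members was not tested. In bulk skin, fewer cells of a type and less RNA per cell cannot be told apart.

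**Figure D1:**
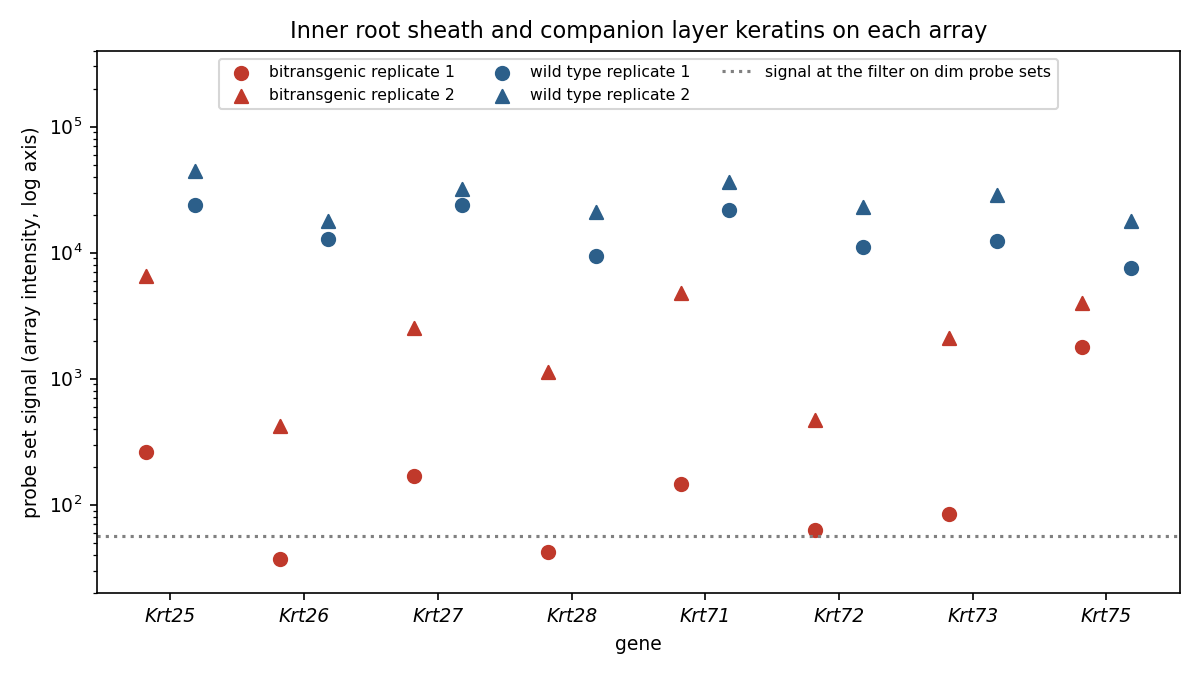
Probe set signal (array intensity, log axis) of the 8 keratins with a probe set, by gene. Red symbols are the bitransgenic and blue symbols the wild type arrays, with circles for replicate 1 and triangles for replicate 2, and the dotted line is the signal of 57.0 at the filter. Every red symbol lies below both blue symbols of its gene, and the red symbols of the 7 sheath keratins lie further apart than those of Krt75.

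Over the 8 keratins the median log2 difference was -5.34, against 0.0053 over all genes tested. The arrays of the genotypes did not overlap for 8 of 8, with lower values in bitransgenic skin, as they did for 24.9% of all genes. A difference of 8-fold or more downward was seen for 7 of 8 keratins and for 1.12% of all genes. At an unadjusted p under 0.05, 8 of 8 were lower, against 9.76% of all genes. All 8 probe sets were past the filter on dim probe sets, which uses the mean over all 4 arrays. In a fit of all 27022 probe sets past the filter, the probe sets of Krt26 and Krt72 were again the 2 called lower (adjusted p = 0.0386 and 0.0369), against 0.555% of all probe sets. Besides Krt26 and Krt72, Krt75 was called without wild type replicate 1, Krt27 without wild type replicate 2, and Krt27 and Krt28 without bitransgenic replicate 1. Without bitransgenic replicate 2, all 7 sheath keratins were called. Such fits hold 1 array of a genotype, which is assumed to vary like the arrays of the other genotype. The median was -3.28 without bitransgenic replicate 1, against -7.50 without bitransgenic replicate 2.

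The bitransgenic animals differed from each other more in most of these keratins than in nearly all other genes. The log2 value of bitransgenic replicate 2 minus replicate 1 was 3.02 to 4.89 for Krt25, Krt26, Krt27, Krt28, Krt71 and Krt73, 2.64 for Krt72 and 1.17 for Krt75. Only 18 of 13070 genes had a value of 3 or more, and 6 of the 18 were inner root sheath keratins. Krt71, Krt25 and Krt73 ranked 2nd, 3rd and 4th of all genes, after the Y-linked Eif2s3y. Eif2s3y read 16 and 1212 in bitransgenic replicates 1 and 2, and 1922 and 22.5 in wild type replicates 1 and 2. Kdm5d, also Y-linked, read 3.8 and 398 in bitransgenic skin and 514 and 18.4 in wild type skin. Each genotype thus had 1 array with high and 1 with low signal of both genes, and the part of this difference in the keratin spread was not tested. The shaft keratins Krt86, Krt33a and Krt35 and the keratin-associated genes Krtap11-1 and Krtap7-1 were also among the 18. The rest were Prr9, Crym, Gm11559, Rnase2a and Prune2. Between the wild type animals the same difference was 0.41 to 1.23 for the 8 keratins, so each was higher in wild type replicate 2. Over all genes the medians were 0.076 for the bitransgenic and -0.013 for the wild type pair. The wild type pair had 19 genes at 3 or more and 21 at -3 or less, against 18 and 5 for the bitransgenic pair. The correlation over kept probe sets was 0.918 for the wild type and 0.949 for the bitransgenic pair. The keratin spread between animals was not tested. Of 4 Trp63 probe sets, 2 rose in bitransgenic skin in the fit of probe sets. The brighter read 10325 and 15247 in bitransgenic replicates 1 and 2, against 206 and 838 in wild type skin (adjusted p = 0.0345). The other read 4644 and 9920, against 161 and 473 (adjusted p = 0.0343). The remaining 2 did not pass (adjusted p = 0.976 and 0.926). Any link to the keratin spread was not tested.

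**Figure D2:**
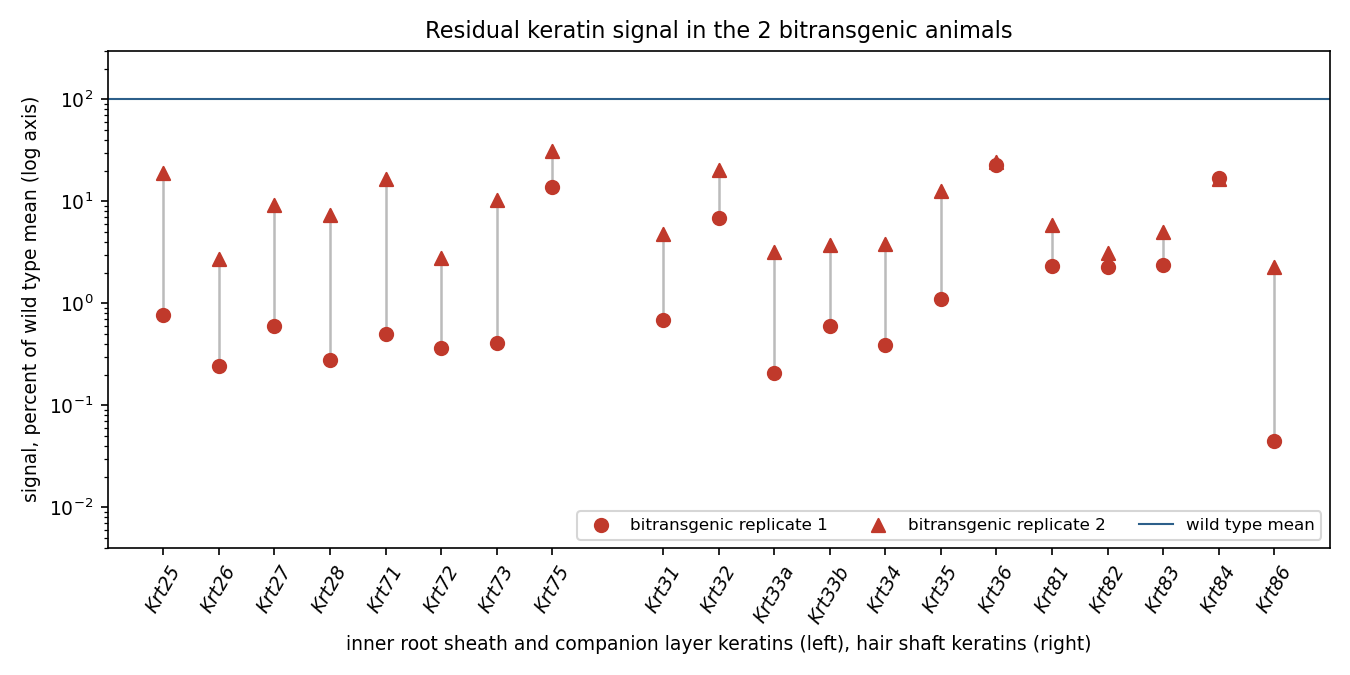
Signal in each bitransgenic animal as percent of the wild type mean of the same gene (log axis), for the 8 inner root sheath and companion layer keratins on the left and 12 hair shaft keratins on the right. Circles are bitransgenic replicate 1, triangles replicate 2, and the blue line is the wild type mean. The sheath keratins run from 0.245% to 0.767% in replicate 1 and from 2.74% to 19.1% in replicate 2, with Krt75 at 13.9% and 31.5%.

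The keratins of the hair shaft, the structure that the sheath encloses, were set beside these values. Of 12 shaft keratins past the filter, 10 fell, 0 rose and 2 did not pass, with a median log2 difference of -4.69. Among all genes tested, 1.58% passed with a lower value. Krt32 and Krt36 passed narrowly in the limma fit (adjusted p = 0.0482 and 0.0497). The summed signal of the 8 sheath and companion keratins was 2572 and 22018 in bitransgenic replicates 1 and 2. In wild type replicates 1 and 2 it was 123127 and 220556. Krt75 alone made up 1769 of the 2572. Without Krt75 the sums were 803 and 18006 in bitransgenic and 115517 and 202690 in wild type skin. For the 12 shaft keratins the summed signal was 1798 and 5649 in bitransgenic and 69712 and 113733 in wild type skin. The median difference between the bitransgenic animals was 4.05 on the log2 scale for the sheath and companion keratins and 1.86 for the shaft keratins. In bitransgenic replicate 1, 5 of the 12 shaft keratins and 2 of the 8 sheath and companion keratins lay below the signal at the filter. The added constant of 16 shrinks differences that involve such low signals. Krt86, a shaft keratin, read 4.9 and 245.8 in bitransgenic replicates 1 and 2, which gave 3.65 on this scale. How far the medians lie apart thus depends in part on the constant. The difference between the lists was not tested.

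The members occupy compact stretches of the keratin clusters. In RefSeq order on chromosome 11, Krt25, Krt26, Krt27 and Krt28 follow each other, with Krt24 on one side and Krt10 on the other. Krt24, a keratin of differentiating keratinocytes, had 186 and 253 in bitransgenic and 110 and 68.7 in wild type skin (log2 difference 1.17 ± 0.39, adjusted p = 0.198). Krt10, the type I keratin of suprabasal epidermis, had 15652 and 18865 in bitransgenic and 24425 and 17586 in wild type skin (-0.27 ± 0.27, adjusted p = 0.688). The arrays of the genotypes thus overlapped for Krt10, next to a block in which every member was lower in each bitransgenic animal.

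On chromosome 15, Krt71, Krt74, Krt72 and Krt73 lie together between Krt5 and Krt2, and Krt75 lies apart, beside Krt6b. Krt5, the type II keratin of basal keratinocytes and the outer root sheath, read 19571 and 34271 in bitransgenic and 23199 and 29838 in wild type skin (-0.023 ± 0.34). Krt6b, a keratin of wounded epidermis, rose by 5.57 ± 0.87 on the log2 scale (adjusted p = 0.0332), with 18588 and 17289 in bitransgenic and 117 and 1058 in wild type skin. The Krt6b call was lost without bitransgenic replicate 1 or 2 (adjusted p = 0.0892 and 0.0685), and its value was 4.06 when wild type replicate 1 was left out and 7.08 when wild type replicate 2 was. Krt75 and its neighbour Krt6b thus differed in opposite directions. Of the other keratin genes tested in these clusters, 7 of 17 on chromosome 11 fell and 0 rose. On chromosome 15, 4 of 18 fell and 1, Krt6b, rose. Over all genes tested, 1.58% fell and 0.75% rose. Those that fell in the clusters were Krt15 and the shaft keratins already counted above.

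**Figure D3:**
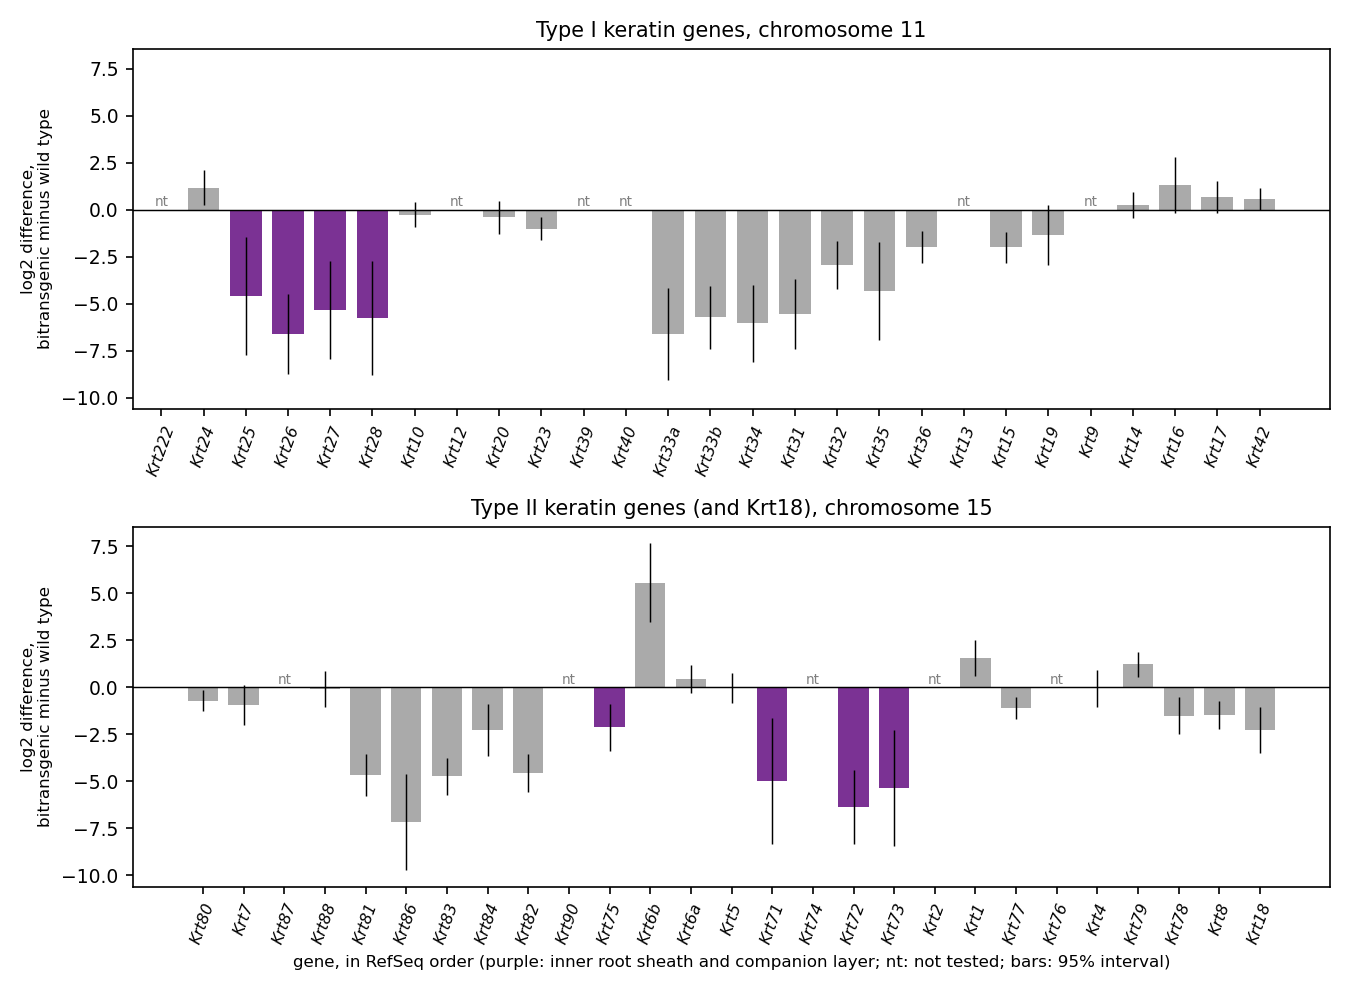
Log2 difference, bitransgenic minus wild type, of the keratin genes of chromosomes 11 and 15 in RefSeq order, with 95% intervals of the moderated fit. Purple bars are the inner root sheath and companion layer keratins, grey bars other keratins, and nt marks genes not tested. The purple blocks at -4.60 to -6.63 on chromosome 11 and -5.00 to -6.35 on chromosome 15 stand beside Krt10 at -0.27 and Krt5 at -0.023.

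Genes listed as partners of the sheath keratins were divided. Of 16 such genes, 3 fell, 0 rose and 13 did not pass, and the median log2 difference was -0.40. They code for sheath matrix, cross-linking, junction and envelope proteins, and for a protease and a protease inhibitor. Bulk skin also holds epidermis, and the part of their signal that came from it was not tested. Tchhl1, a relative of trichohyalin, read 26.0 and 62.9 in bitransgenic and 8074 and 8689 in wild type skin (-7.19 ± 0.36, adjusted p = 0.00331). Padi1 and Padi3, deiminases that convert arginine to citrulline in sheath proteins, fell, with log2 differences of -4.41 ± 0.41 and -4.60 ± 0.60 (adjusted p = 0.00781 and 0.0193). Trichohyalin itself, Tchh, which binds the keratin filaments of the sheath, read 276 and 2239 in bitransgenic and 11068 and 14710 in wild type skin (-3.98 ± 0.86, adjusted p = 0.0793). Tchh was called lower without bitransgenic replicate 1 (-2.50, adjusted p = 0.0362) and without bitransgenic replicate 2 (-5.45, adjusted p = 0.000553). Tchh and Tchhl1 were both higher in bitransgenic replicate 2 than in replicate 1, and Tchhl1 was below 1% of its wild type mean in both animals.

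Further cross-linking and junction genes did not pass. Tgm3, a transglutaminase of the sheath and the shaft, had a log2 difference of -2.35 ± 0.88 (adjusted p = 0.253), with 378 and 2987 in the wild type animals. It was called lower without wild type replicate 1 (-3.81, adjusted p = 0.00316) and had a value of -0.88 without wild type replicate 2 (adjusted p = 0.279). Cdsn, the gene of corneodesmosin, and Dsg1a, a desmoglein gene, had values of -0.61 and -0.68 (adjusted p = 0.246 and 0.28). Tgm5 and Ivl, genes of the cornified envelope, had values of 0.66 and 1.35 (adjusted p = 0.333 and 0.306). Ivl was called higher without wild type replicate 2 (2.24, adjusted p = 0.0101) and had a value of 0.45 without wild type replicate 1 (adjusted p = 0.656).

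Among 16 regulators of the matrix cells that give rise to the sheath, 1 fell, 0 rose and 15 did not pass, with a median log2 difference of -1.20. All 16 had negative values, as had 6469 of all 13070 genes. For 14 of 16 the genotypes did not overlap, with lower values in bitransgenic skin, against 24.9% of all genes. At an unadjusted limma p under 0.05, 10 of 16 were lower, against 9.76% of all genes. The gene that fell was Bmp4, a growth factor of the dermal papilla and the matrix (-2.70 ± 0.36, adjusted p = 0.0201), and its call was lost without bitransgenic replicate 1 (-2.32, adjusted p = 0.0829). Msx2, a homeobox factor of the matrix, read 71.9 and 306 in bitransgenic and 1134 and 3337 in wild type skin (-3.55 ± 0.73, adjusted p = 0.0682). Dlx3, a homeobox factor needed for sheath and shaft formation, read 177 and 561 in bitransgenic and 1315 and 5048 in wild type skin (-2.96 ± 0.74, adjusted p = 0.11). Cux1, a sheath factor, had a value of -1.76 ± 0.34 (adjusted p = 0.0605). Foxn1, Hoxc13 and Lef1, factors of hair differentiation, had values of -1.75, -1.51 and -2.86 (adjusted p = 0.114, 0.13 and 0.13). The value of Gata3, which is required for sheath formation in mice and was singled out after its value was seen, was -0.79 ± 0.30 (adjusted p = 0.253). The number of these regulators called lower was 8 without wild type replicate 1, 2 without wild type replicate 2, 0 without bitransgenic replicate 1 and 2 without bitransgenic replicate 2. Msx2, Dlx3, Cux1, Foxn1, Hoxc13 and Lef1 were all called without wild type replicate 1, Cux1 also without wild type replicate 2 and Msx2 also without bitransgenic replicate 2.

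**Figure D4:**
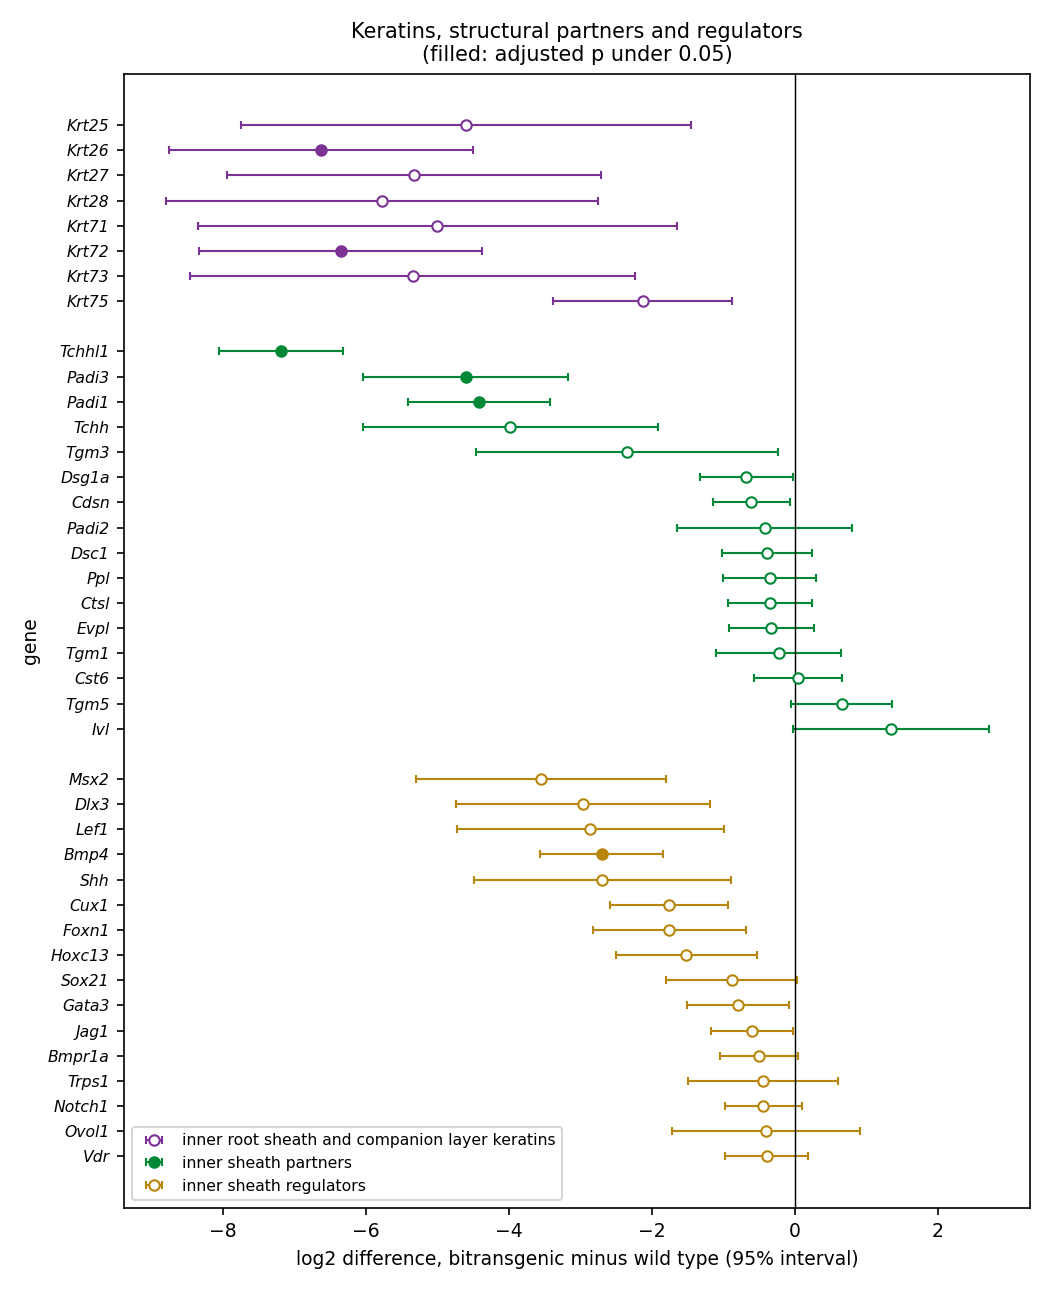
Log2 difference, bitransgenic minus wild type, with 95% intervals of the moderated fit. Purple marks the 8 keratins, green the 16 partner genes and gold the 16 regulators. Filled symbols passed the threshold of 0.05 on the adjusted p. The keratins run from -6.63 to -2.12, the partners from -7.19 to 1.35 and the regulators from -3.55 to -0.39.

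The genes whose values over the 4 arrays ran closest to the mean course of the 8 keratins were Krtap3-1, Prr9, Krtap8-1, Gm10229 and Krt31. Likeness was the Euclidean distance between log2 values centred on each gene's own mean, and the distances were 0.55, 0.61, 0.63, 0.72 and 0.85. Krtap3-1 and Krtap8-1 code for keratin-associated proteins of the hair shaft, and Krt31 is a shaft keratin. Among the members, Krt27 lay closest to the mean course at 0.41 and Krt75 farthest from it at 3.48. Krt26 and Krt72 lay at 1.57 and 1.39, with 19 and 15 genes outside the members closer. For Krt75, 147 such genes were closer. With 4 arrays and 2 genotypes, many genes can share such a course.

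Other cell types of the skin also differed between the arrays. The labelled tissue was checked with Krt5 and Krt14, whose signals were 19571 to 36168 in bitransgenic and 22719 to 29838 in wild type skin. Of 13 companion layer, outer sheath and bulge genes, Krt5 and Krt14 included, 1 fell, 1 (Krt6b) rose and 11 did not pass. For 6 of the 13, Lgr5, Lgr6, Lhx2, Sox9 and Cd34 among them, the genotypes did not overlap, with lower values in bitransgenic skin. For 3, Krt6b, Krt79 and Krt16, they did not overlap, with higher values. Krt79 read 23210 and 34422 in bitransgenic and 12408 and 11445 in wild type skin. Krt16 read 6121 and 7469 in bitransgenic and 5605 and 1334 in wild type skin. The counts over all 13070 genes were 3253 lower and 3119 higher. The gene that fell was Krt15, a keratin of the bulge and basal layer (3830 and 6297 in bitransgenic and 24482 and 15926 in wild type skin, adjusted p = 0.0424), whose call was lost without bitransgenic replicate 1 or wild type replicate 1 (adjusted p = 0.172 and 0.0515). Of 9 interfollicular epidermis genes, 0 fell, 1 rose and 8 did not pass. The gene that rose was Flg, the gene of filaggrin (2.13, adjusted p = 0.0156), whose call was lost without bitransgenic replicate 1 or 2 (adjusted p = 0.115 and 0.054). Of 8 skeletal muscle genes 6 fell, and their summed signal was 18305 to 24796 in bitransgenic and 89117 to 195149 in wild type skin. For 5 fat cell genes the sum was 22446 to 29727 in bitransgenic and 48171 to 50700 in wild type skin, and none of them passed. For 8 fibroblast genes it was 63525 to 83221 in bitransgenic and 119136 to 138056 in wild type skin, also with none past the threshold. Among 6 melanocyte genes, 1 fell, Mitf, and the sum was 2576 to 2685 in bitransgenic and 5387 to 17924 in wild type skin. In wild type replicate 1, Mitf made up 3464 of the 5387. There Tyr, Pmel, Mlana, Tyrp1 and Dct read 112.5, 328.2, 101.5, 369.1 and 1011.8. In bitransgenic skin they read 104.7 and 166.3, 323.4 and 319.1, 123 and 70.6, 453.9 and 576.5, and 872.9 and 936.9. Wild type replicate 2 had 1132.2, 3436.6, 1813.8, 3657.7 and 5485.6. The sum of 11 cell division genes was 25770 to 30299 in bitransgenic and 12038 to 21864 in wild type skin. No marker on these lists that was past the filter was at 0 on any array. Without detection calls, that does not show that a cell type was present. The part of these differences in the keratin values was not tested.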

How the data were processed

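Dorsal skin of 2 bitransgenic and 2 wild type mice was measured on single-colour Affymetrix arrays. The values that the authors deposited are linear intensity signals, 1 for each probe set. MAS5 and affy are named per the submitters' processing notes, without role or version, and the arrays share a mean of 500.0 with 2% of probe sets trimmed at each end. Such scaling makes each value relative to its array. No detection calls were used here.

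Signals were transformed as log2(signal + 16). Probe sets with a mean at or above the 40th percentile of those that were not controls (6.19, or a signal of 57.0) were kept, 27022 of 45101, and the brightest stood for its gene. Groups, taken from the labels, were set against each other by limma 3.58.1, run in R 4.3.3 (eBayes with an intensity trend, 2 residual and 4.45 prior degrees of freedom), with Benjamini-Hochberg adjustment over 13070 genes. SE and 95% intervals are those of this fit. Its calls and signs, but not its intervals, were tested on simulated data with the same spread in both genotypes. The sheath keratins spread more between the bitransgenic than between the wild type animals, so that setting differs from theirs. A second fit used all kept probe sets. The number of arrays limits the precision. Replicates are biological ones, per the labels. No coordinates are given for probe sets, since no build is given for them.

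The members and lists were chosen with earlier results of these data known. Named were all members, the partner and regulator genes that passed with up to 6 further genes of smallest p on each list, and the 5 genes nearest in profile. Gata3, the genes that flank the members, the shaft keratins named, Krt15 and Flg were named after their values were seen. So were Lgr5, Lgr6, Lhx2, Sox9, Cd34, Krt79, Krt16 and the melanocyte genes. The same holds for Eif2s3y, Kdm5d and the other non-members listed for their difference between the bitransgenic animals. Alternatives covered the constant, the filter, the normalization, the choice of probe set, the intensity trend, the replicate number as a block and each array left out.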

Additional observations from a re-analysis of the deposited data

How the results depend on the processing

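All 8 keratins were lower in bitransgenic skin under each of the 14 alternatives, and Krt26 and Krt72 were called under each. The count of 2 called keratins held under all alternatives but those that follow. With replicate number as a block, 8 keratins, their 8 probe sets and 6 regulators were called lower. Each such block set an array with high signal of the Y-linked Eif2s3y and Kdm5d against an array with low signal. The 2 - 1 differences of the bitransgenic and wild type pairs had a correlation of 0.21 over genes, which with 2 pairs does not show that the numbers pair the animals. With each array left out in turn, 3 to 7 keratins, 2 to 8 of their probe sets, 0 to 8 regulators, 3 to 4 partners and 8 to 11 shaft keratins were called, and the median log2 difference of the keratins ran from -7.50 to -3.28. Of the member probe sets, 1 was called when 1 was added to signals, 0 with no filter and 0 with no intensity trend. For other alternatives that median ran from -5.43 to -5.10. Among the 12 shaft keratins, 7 were called lower when 1 was added to signals, with no filter and with no intensity trend. With the block it was 12. Of 112 single values of members, 97 kept their side of the threshold, 15 passed it newly and 0 reversed. Over all genes, 206 were called lower and 98 higher, against 438 and 207 with the block, 132 and 52 with no filter, and 96 to 635 lower and 22 to 314 higher with an array left out. Krt5, at -0.023, was 0.067 with equal array medians and ran from -0.43 to 0.38 with an array left out. No scaling moved the median of all genes by more than 0.1. The cause was not tested. Precision is limited by 2 arrays a group, and signals below 57.0 have uncertain folds.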
